A study of Mus musculus with 6 samples.

Results

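The calmodulin-dependent kinases are 10 genes of the mouse, Camk1, Camk1d, Camk1g, Camk2a, Camk2b, Camk2d, Camk2g, Camk4, Camkk1 and Camkk2, found by symbol among 49997 gene symbols in each count table. The family was chosen by the level of Camk1g, which was among the genes called lower with the Nr2e3 guide, and its 9 paralogs were added by name. RNA was counted in photoreceptors of Rosa26-Cas9 mice, in which every cell carries SpCas9. The Nr2e3 guide group holds 3 libraries (1 male and 2 female mice, anti Nr2e3 guide RNA) and the control guide group 3 libraries (3 male mice, control guide RNA, titled NTC), each library from both injected retinas of 1 mouse. All 6 mice received adeno-associated virus with a 7m8 coat under the retina, with mCherry behind a human GRK1 promoter that limits the reporter to photoreceptors, and mCherry-positive cells, about 100000 a library, were sorted 6 months after injection. The labels give the age at injection both as postnatal day 21 and as 4 weeks, and the sort selects cells that took up virus, not cells whose Nr2e3 was cut.

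Calcium bound to calmodulin opens the catalytic site of these kinases. Camk1 and Camk4 kinases reach full activity only after Camkk1 or Camkk2 phosphorylates them, while Camk2 subunits assemble into rings that phosphorylate each other and stay active after calcium falls. In photoreceptors calcium enters through cyclic nucleotide-gated channels and synaptic calcium channels in darkness and falls in light. Nr2e3 encodes a nuclear receptor of rods that is known to repress cone genes.

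Total gene counts were 24705561 to 33098812 in Nr2e3 guide and 32626751 to 34286248 in control guide libraries, so that 3 counts equal 0.0906 to 0.121 CPM in Nr2e3 guide and 0.0875 to 0.0919 CPM in control guide libraries, where CPM is the count of a gene scaled by the library total. Nr2e3 stood at 2024, 1773 and 2303 CPM in Nr2e3 guide replicates 1 to 3 and at 1695, 1608 and 1645 CPM in control guide replicates 1 to 3. A count over the whole gene cannot see the short insertions and deletions that Cas9 leaves, and so says nothing on whether the guide labels hold. The 8 rod markers were all detected and summed to 140000 to 146900 CPM in Nr2e3 guide and 145700 to 164100 CPM in control guide libraries, and no marker of any retinal or blood cell list was at 0 in all libraries. The 7 cone markers summed to 11580 to 14790 CPM in Nr2e3 guide and 1451 to 7358 CPM in control guide libraries, lowest in control guide replicate 3. The markers did not move together: Gnat2, Pde6c and Pde6h were higher in every Nr2e3 guide than in every control guide library, with ratios of means of 3.79 to 9.61, while Arr3, Opn1sw, Opn1mw and Gngt2 had ratios of 0.544 to 0.754 with overlapping groups. Control guide replicate 3 also had the highest microglia marker sum, 216 CPM, against 19.1 to 81.4 CPM in the other libraries of both groups.

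The gene starts of Camk1g and its closest expressed relative Camk1d are shown because their upstream sequences differ in base composition. Both are on the minus strand of GRCm38.p6 (RefSeq), written 5′ to 3′ towards the start site, and capitals mark the motif letters that were found. The Camk1g stretch lies at chr1:193370299-193370532 and ends where the first annotated exon begins. That of Camk1d lies at chr2:5714763-5715012.
Camk1g: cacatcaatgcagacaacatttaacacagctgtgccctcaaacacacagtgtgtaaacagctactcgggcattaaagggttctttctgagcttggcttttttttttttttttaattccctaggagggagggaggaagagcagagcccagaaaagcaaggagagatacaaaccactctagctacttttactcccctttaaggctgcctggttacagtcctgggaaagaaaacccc
Camk1d: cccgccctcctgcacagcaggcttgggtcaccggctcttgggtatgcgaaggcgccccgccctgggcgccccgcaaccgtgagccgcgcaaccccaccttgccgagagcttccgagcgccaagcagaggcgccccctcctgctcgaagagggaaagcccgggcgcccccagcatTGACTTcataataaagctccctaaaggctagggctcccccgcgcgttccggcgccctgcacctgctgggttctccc

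In the 250 bases before the start, Camk1g had 44.8% G or C and 1 CG pair, while Camk1d had 69.2% and 22 CG pairs. Among all 32851 RefSeq promoters, 24.5% had a G or C share at or below that of Camk1g and 90.2% at or below that of Camk1d. A further start of Camk1d had 48.4% and 5 CG pairs. The other kinases with a promoter entry that is described here ran from 58.0% in Camk1 over 68.4% in Camk2d, 72.4% in Camkk2 and 74.4% in Camkk1 to 78.4% in Camk2b. On either strand, the Camk1g window held no Crx core (TAATCC, in 6.25% of promoters), no Nr2e3 half-site (AAGTCA, in 13.1%), no Nrl element (TGCTGA, in 16.1%), no cAMP response element (TGACGTCA, in 1.55%) and none of its half-sites (TGACG, in 17.8%, a part of the full element). The first Camk1d window held 1 Nr2e3 half-site, read as TGACTT on the printed strand from 76 bases before the start, and Camk1 held 2 Nrl elements. Camk1 and Camkk1 each held 1 half-site of the cAMP response element. A match or its absence describes these letters in this window and nothing about binding.

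Camk1g (chromosome 1, 193346346 to 193370298, minus strand) encodes a Camk1 isoform with a lipid-bound tail that holds it at membranes. Its level was 10.6, 10.2 and 8.55 CPM in Nr2e3 guide replicates 1 to 3 and 23.7, 26.6 and 31.3 CPM in control guide replicates 1 to 3. All Nr2e3 guide libraries were below all control guide libraries, and the means were 9.77 ± 1.07 CPM in Nr2e3 guide and 27.2 ± 3.83 CPM in control guide libraries (SD, n = 3 each), a ratio of 0.359. The male Nr2e3 guide library, replicate 1, stood at 10.6 CPM against 23.7 to 31.3 CPM in the 3 male controls. In a fit of edgeR's quasi-likelihood test across all genes the log2 fold change was -1.39 (SE 0.20), with an adjusted p of 0.0468, and these are the values that chose the family, given as a description. That fit called 0.344% of 17138 genes in either direction and 0.0292% lower. The call was lost in each of the 6 fits without 1 library, with adjusted p of 0.189, 0.167 and 0.127 without Nr2e3 guide replicate 1, 2 or 3 and of 0.195, 0.300 and 0.0771 without control guide replicate 1, 2 or 3. A fit that adds sex, in which Nr2e3 guide replicate 1 alone sets the contrast with the 3 male controls, also lost it (log2 fold change -1.27, edgeR adjusted p = 0.440). The fold change ran from -1.46 to -1.27 over all 13 alternative fits.

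**Figure D1:**
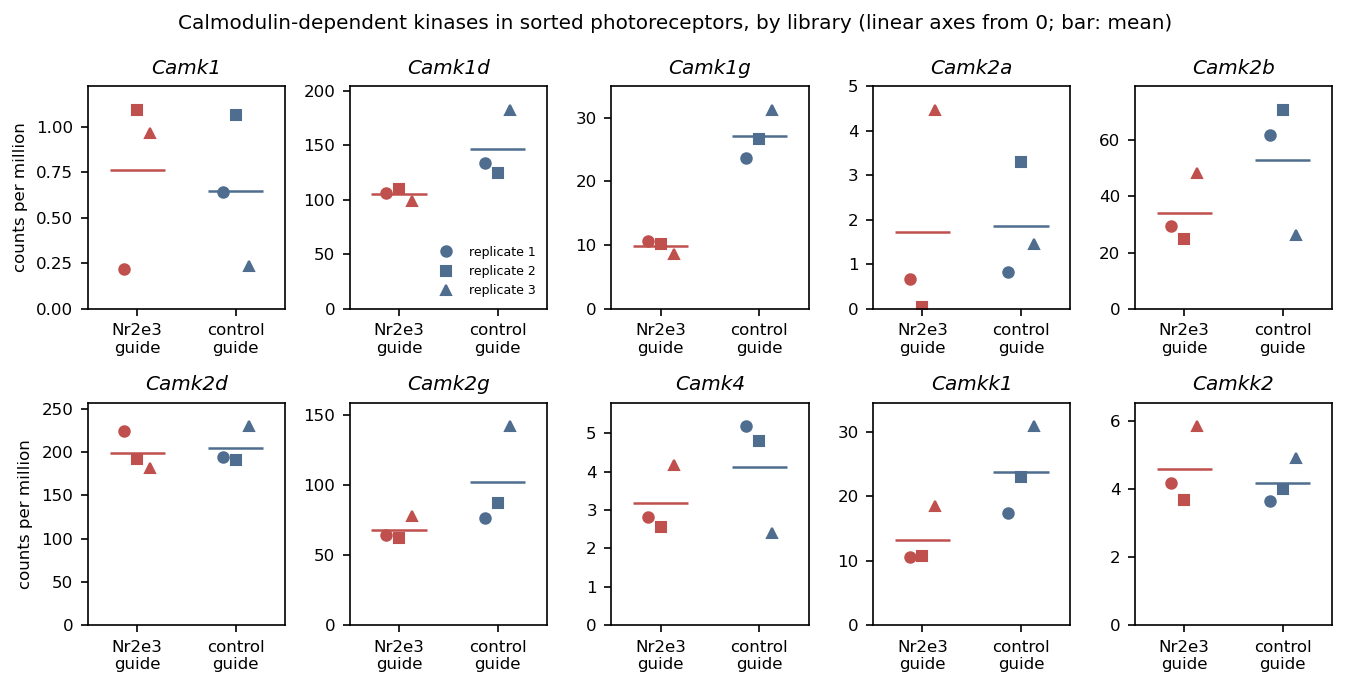
CPM of each kinase in each library, with Nr2e3 guide libraries on the left and control guide libraries on the right of each panel and a bar at the mean of 3. Camk1g is at 8.55 to 10.6 CPM in Nr2e3 guide and 23.7 to 31.3 CPM in control guide libraries, and Camk1g and Camk1d are the 2 genes whose groups do not overlap on this scale.

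Among the other Camk1 kinases, Camk1d (chromosome 2, 5293457 to 5714515) is the relative closest in sequence. It had 106, 110 and 99.0 CPM in Nr2e3 guide replicates 1 to 3 and 133, 125 and 183 CPM in control guide replicates 1 to 3. The groups did not overlap, with control guide replicate 3 well above the other controls. The fitted log2 fold change was -0.40 (SE 0.16, edgeR adjusted p = 0.840) and did not pass, and without control guide replicate 3 it was -0.27. Camk1 (chromosome 6, 113334124 to 113343984), the founding isoform, had 6, 27 and 32 counts in Nr2e3 guide libraries and 21, 36 and 8 counts in control guide libraries, or 0.220 to 1.09 CPM in Nr2e3 guide and 0.233 to 1.06 CPM in control guide libraries. At this depth no difference was detectable, and 3.88% of its exon bases also lie in exons of Ogg1 on the opposite strand. Pnck, the remaining Camk1 isoform and no member by the naming rule, was at 8.21, 2.55 and 9.97 CPM in Nr2e3 guide and 12.7, 9.94 and 2.28 CPM in control guide libraries, with both groups spread over the same range.

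Within the Camk1 group, counted with Pnck, Camk1g supplied 8.45, 8.22 and 7.21% of counts in Nr2e3 guide replicates 1 to 3 and 13.9, 16.4 and 14.4% in control guide replicates 1 to 3. This share does not depend on how libraries are scaled, and its means were 7.96 ± 0.656% in Nr2e3 guide and 14.9 ± 1.32% in control guide libraries (SD, n = 3 each). The share of Camk1d was 83.6 to 88.8% in Nr2e3 guide and 76.8 to 84.4% in control guide libraries, which overlap. Summed over the group, the level was 118 to 125 CPM in Nr2e3 guide and 162 to 216 CPM in control guide libraries.

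Set against each paralog in the same library, as log2 of the Camk1g count over the paralog count with 0.5 added to both, Camk1g was lower in every Nr2e3 guide than in every control guide library for 6 of the 9 paralogs: Camk1d, Camk2d, Camk2g, Camk4, Camkk1 and Camkk2. Against Camk1d the log2 ratio was -3.33, -3.43 and -3.53 in Nr2e3 guide and -2.49, -2.23 and -2.55 in control guide libraries, a difference in means of -1.01. Against Camk2d it was -4.35 ± 0.10 in Nr2e3 guide and -2.92 ± 0.10 in control guide libraries (SD, n = 3 each), a difference of -1.43. Against Camkk1 the gap was narrowest, -0.39 ± 0.62 in Nr2e3 guide and 0.23 ± 0.22 in control guide libraries, with 0.01 in Nr2e3 guide replicate 1 and 0.02 in control guide replicate 3. The ratios to Camk1, Camk2a and Camk2b overlapped between groups. Since the contrast chose Camk1g, these ratios are a description and were not tested. The level of Camk1g itself did not overlap between groups, so the count of 6 is no result about the paralogs. For how many of all genes the ratio would also separate the groups was not counted.

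**Figure D2:**
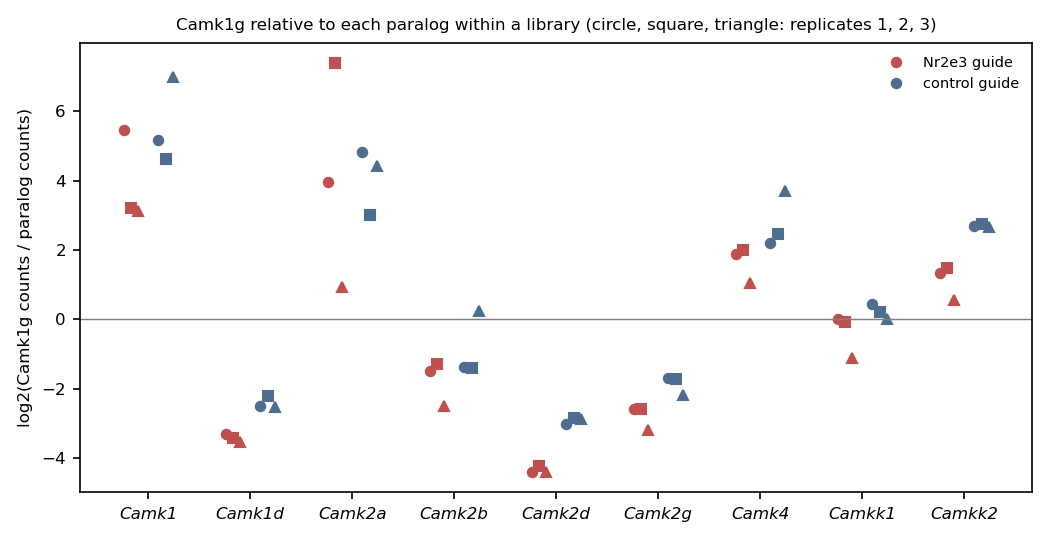
Log2 ratio of Camk1g counts to the counts of each paralog, 1 point per library, Nr2e3 guide to the left of control guide for each paralog. For Camk1d, Camk2d and Camkk2 the 2 groups stand well apart, for Camkk1 they nearly touch, and for Camk1, Camk2a and Camk2b they overlap.

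The Camk2 kinases, summed, were at 278 to 319 CPM in Nr2e3 guide and 334 to 400 CPM in control guide libraries. Camk2d (chromosome 3, 126596302 to 126846326), the delta subunit found in many tissues, was at 225, 191 and 181 CPM in Nr2e3 guide and 194, 191 and 230 CPM in control guide libraries. The groups overlapped fully, and the fitted log2 fold change was 0.04 (SE 0.14, edgeR adjusted p = 0.996), while the ratio of plain CPM means was 0.972. Camk2g (chromosome 14, 20734875 to 20794088), the gamma subunit, was at 64.2, 62.1 and 77.8 CPM in Nr2e3 guide and 76.7, 87.5 and 142 CPM in control guide libraries. Nr2e3 guide replicate 3 lay just above the lowest control, and control guide replicate 3 was far above the rest. Its log2 fold change was -0.50 (SE 0.21, edgeR adjusted p = 0.865), and -0.25 without control guide replicate 3.

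Camk2b (chromosome 11, 5969644 to 6066362), the actin-binding beta subunit of neurons, was at 29.6, 24.8 and 48.4 CPM in Nr2e3 guide and 62.0, 70.9 and 26.4 CPM in control guide libraries. The groups overlapped because control guide replicate 3 lay among the Nr2e3 guide libraries (log2 fold change -0.60, SE 0.40, edgeR adjusted p = 0.995). The 8 amacrine markers, all detected, summed to 160, 57.2 and 285 CPM in Nr2e3 guide and 286, 344 and 144 CPM in control guide libraries, and the 6 libraries stood in the same order by this sum as by Camk2b. Of 132 pairs of a kinase or Pnck with a marker list, this was the 1 with the same order, and it was picked out after all were compared. The orders by the ganglion cell and the pigment epithelium marker sums differed from that by Camk2b by at most 1 place. The 8 ganglion cell markers summed to 20.4 to 62.9 CPM in Nr2e3 guide and 21.3 to 84.1 CPM in control guide libraries, and the 5 pigment epithelium markers to 0.243 to 2.05 CPM in Nr2e3 guide and 0.0583 to 12.8 CPM in control guide libraries. Whether transcripts of other retinal neurons contributed to Camk2b was not tested, and in such bulk samples fewer cells of a type and less RNA per cell cannot be told apart. Camk2a (chromosome 18, 60925618 to 60988152), the alpha subunit of forebrain synapses, had 18, 1 and 148 counts in Nr2e3 guide and 27, 112 and 50 counts in control guide libraries. Nr2e3 guide replicates 2 and 3 were the lowest and the highest of all 6, and the log2 fold change of -0.08 had an SE of 1.17 (edgeR adjusted p = 0.998).

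**Figure D3:**
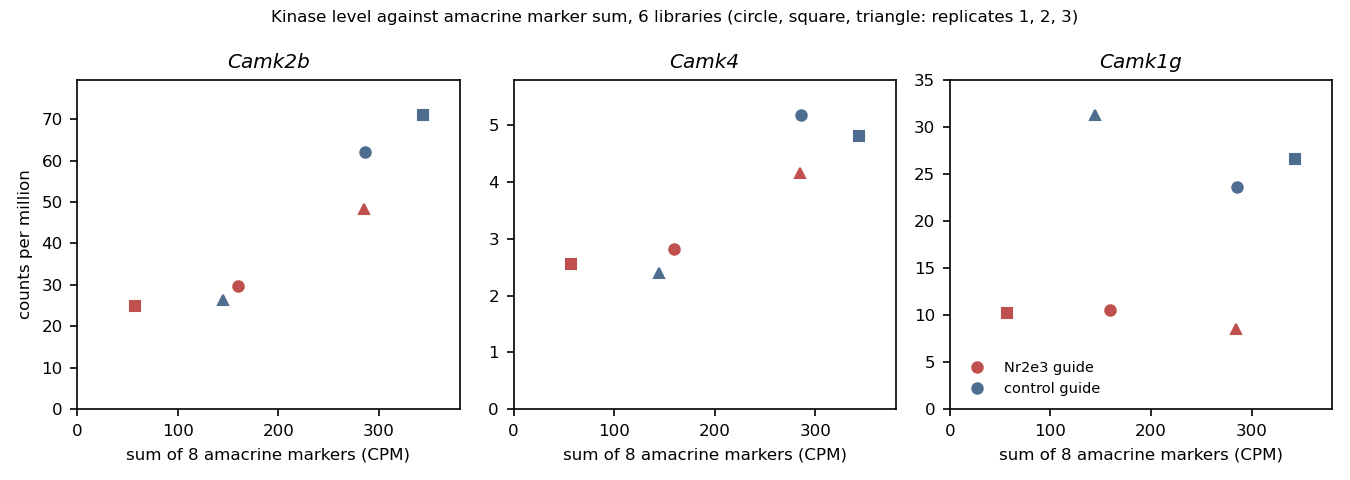
Levels of Camk2b, Camk4 and Camk1g against the summed level of 8 amacrine markers, both in CPM, 1 point per library. Camk2b places the 6 libraries in the same order as the marker sum, Camk4 nearly so, and Camk1g is at 8.55 to 10.6 CPM in Nr2e3 guide libraries, whose marker sums run from 57.2 to 285 CPM, and at 23.7 to 31.3 CPM in control guide libraries, whose sums run from 144 to 344 CPM.

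Within the Camk2 group, Camk2d supplied 70.4, 68.8 and 58.1% of counts in Nr2e3 guide and 58.2, 54.1 and 57.5% in control guide libraries. The groups met only at 58.1% in Nr2e3 guide replicate 3 and 58.2% in control guide replicate 1. Camk2b supplied 8.91 to 15.5% in Nr2e3 guide and 6.61 to 20.1% in control guide libraries, and Camk2a at most 1.43%. Pairs of Camk2 proteins were 84.2 to 86.7% identical over their aligned residues, and Camk1g was 65.2% identical to Camk1d, 61.8% to Camk1 and 39.1% to Camk4. No run of 50 bases was shared between annotated transcripts of any pair of the 10 kinases and Pnck, so reads of that length without errors belong to 1 of them.

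Camk4 (chromosome 18, 32934931 to 33191228), a largely nuclear kinase that phosphorylates Creb1, was at 2.82, 2.55 and 4.17 CPM in Nr2e3 guide and 5.18, 4.81 and 2.39 CPM in control guide libraries. Control guide replicate 3 lay below all Nr2e3 guide libraries. The ranks of the 6 libraries differed from those of the amacrine and of the pigment epithelium marker sums by at most 1 place. Such a likeness was found for 5 of the 132 pairs, picked out after all were compared. Its log2 fold change was -0.33 (SE 0.41, edgeR adjusted p = 0.995).

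Of the activating kinases, Camkk1 (chromosome 11, 73019008 to 73042073) was at 10.5, 10.8 and 18.4 CPM in Nr2e3 guide and 17.3, 23.0 and 30.9 CPM in control guide libraries. Only Nr2e3 guide replicate 3 reached the range of the controls, and the fitted -0.77 on the log2 scale (SE 0.27, edgeR adjusted p = 0.716) did not pass. Camkk2 (chromosome 5, 122731170 to 122779409), which also phosphorylates AMP-activated kinase, was at 4.18, 3.68 and 5.83 CPM in Nr2e3 guide and 3.65, 3.98 and 4.90 CPM in control guide libraries, and its ranges overlapped (log2 fold change 0.20, SE 0.29, edgeR adjusted p = 0.995). Between them, Camkk1 held 71.5, 74.5 and 76.0% of the counts in Nr2e3 guide and 82.6, 85.2 and 86.3% in control guide libraries. This share did not overlap between groups and was 74.0 ± 2.28% in Nr2e3 guide and 84.7 ± 1.89% in control guide libraries (SD, n = 3 each). It comes from the contrast that chose the family and was not tested. How many pairs among all genes have a share that separates the groups was not counted.

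**Figure D4:**
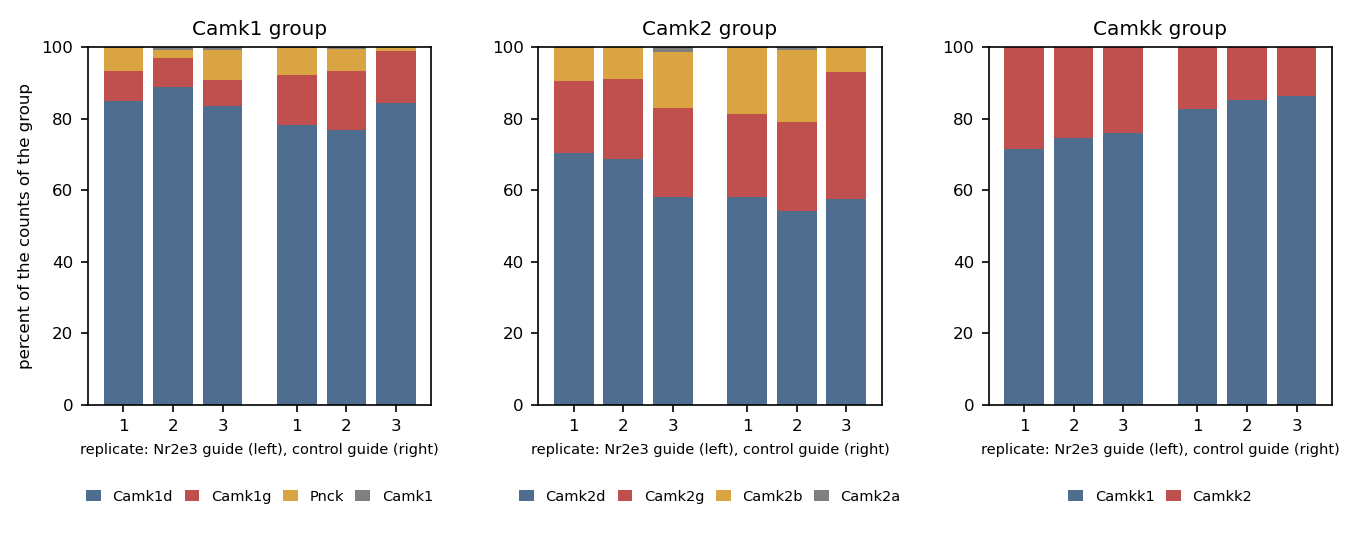
Share of each gene in the counts of its group, in percent, 1 bar per library, with Nr2e3 guide replicates 1 to 3 on the left and control guide replicates 1 to 3 on the right. Camk1g supplies 7.21 to 8.45% of the Camk1 group in Nr2e3 guide and 13.9 to 16.4% in control guide libraries, and Camkk1 71.5 to 76.0% of the Camkk pair in Nr2e3 guide and 82.6 to 86.3% in control guide libraries.

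All 10 kinases passed the filter on low counts. Camk1g was the 1 member called by edgeR, by DESeq2, which called 1.58% of all genes, and by limma-voom, which called 1.04%. Of the 9 paralogs, each of the 3 tools called 0, and 3 had an unadjusted p under 0.05 in the edgeR fit, Camk1d, Camk2g and Camkk1, all with a negative fold change, beside 5.69% of all genes in either direction. Of the paralogs 6 had a negative and 3 a positive fold change, with a median of -0.33 beside -0.01 over all genes tested. Groups did not overlap for 2 of 10 kinases, both lower, beside 7.55% of all genes with every Nr2e3 guide library below every control guide library and 4.63% with every one above. With library sizes scaled by TMM, which moved the median log2 ratio of all genes from -0.09 to -0.01, Camk2g and Camkk1 also did not overlap, beside 5.92% of all genes. The margin for Camkk1 was then 17.9 CPM in Nr2e3 guide replicate 3 against 18.0 CPM in control guide replicate 1.

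**Figure D5:**
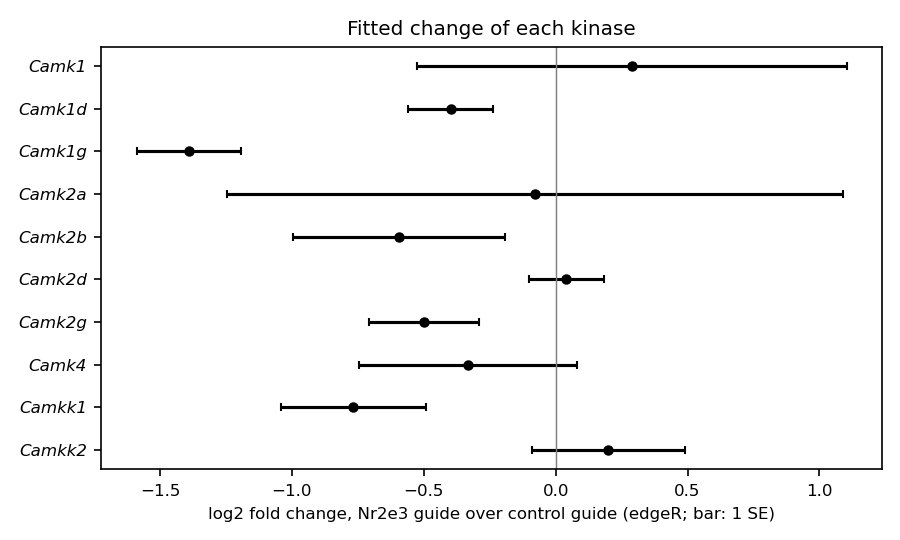
Log2 fold change of each kinase, Nr2e3 guide over control guide, from edgeR's fit across all genes, with bars of 1 standard error (n = 3 libraries each). Camk1g lies at -1.39, Camkk1, Camk2b, Camk2g and Camk1d between -0.77 and -0.40, and Camk1 and Camk2a have standard errors of 0.82 and 1.17.

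Levels of different genes were compared per kilobase of all annotated exons. In Nr2e3 guide libraries the order was Camk1d (14.2 ± 0.761 CPM per kb), Camk2g (10.6 ± 1.33), Camk2d (8.85 ± 1.01), Camk2b (3.76 ± 1.36), Camkk1 (3.55 ± 1.21), Camk1g (3.54 ± 0.388), Camk4 (0.976 ± 0.266), Camkk2 (0.418 ± 0.103), Camk2a (0.231 ± 0.321) and Camk1 (0.127 ± 0.0790). In control guide libraries it was Camk1d (19.8 ± 4.21 CPM per kb), Camk2g (16.0 ± 5.47), Camk1g (9.85 ± 1.39), Camk2d (9.10 ± 0.962), Camkk1 (6.37 ± 1.82), Camk2b (5.82 ± 2.58), Camk4 (1.27 ± 0.465), Camkk2 (0.382 ± 0.0594), Camk2a (0.250 ± 0.172) and Camk1 (0.108 ± 0.0693), all as mean and SD of 3 libraries. Camk1g thus stood at place 6 with the Nr2e3 guide, where its range overlapped that of Camkk1, and at place 3 with the control guide, where it overlapped that of Camk2d. With the Nr2e3 guide the neighbours Camk2g and Camk2d, Camk2b and Camkk1, Camkk2 and Camk2a, and Camk2a and Camk1 also overlapped. In controls the neighbours Camk1d and Camk2g, Camkk1 and Camk2b, Camkk2 and Camk2a, and Camk2a and Camk1 also overlapped. With the longest coding transcript as the length, Camk2d came first in both groups and Camk1g stood at place 5 in both, so its place depends on the length used.

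Calm2, which encodes calmodulin itself, was at 758, 786 and 576 CPM in Nr2e3 guide and 688, 706 and 472 CPM in control guide libraries, and the groups overlapped. Of 7 tested genes for calmodulin and proteins that buffer it, edgeR, DESeq2 and limma-voom each called 0, beside 0.344, 1.58 and 1.04% of all genes. The edgeR fit gave 1 of the 7 an unadjusted p under 0.05, beside 5.69% of all genes. The median log2 fold change of the 7 was -0.16. Camk2n1, an inhibitor of Camk2, was at 10.3 to 21.6 CPM in Nr2e3 guide and 13 to 19.4 CPM in control guide libraries, and Ppm1e, a phosphatase that reverses kinase activation, was fitted at 0.43 on the log2 scale (SE 0.21, edgeR adjusted p = 0.943). Camk2n2, an inhibitor near the detection floor, had 8 to 15 counts in Nr2e3 guide and 11 to 17 counts in control guide libraries. Camk2n1, Camk2n2, Ppm1e and Ppm1f had 0 of 4 called by any tool, beside the same shares of all genes. The edgeR fit gave 0 of these 4 an unadjusted p under 0.05, beside 5.69% of all genes.

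Of 15 tested kinases that are related or bind calmodulin, 0 were called by edgeR, beside 0.344% of all genes, and 4 had an unadjusted p under 0.05, beside 5.69%. The median log2 fold change was -0.15, although 3 of those 4, Mylk, Pskh1 and Dclk1, had a positive fold change, and Dapk3, a death-associated kinase, was at -0.98 (SE 0.40). DESeq2, which called 1.58% of all genes, called Mylk, myosin light chain kinase, and limma-voom, which called 1.04%, called Mylk and Pskh1. Mylk, named like Pskh1 and Dapk3 after its values were seen, was at 78.2, 38.9 and 59.9 CPM in Nr2e3 guide and 20.9, 26.6 and 18.1 CPM in control guide libraries (edgeR log2 fold change 1.49, SE 0.28, adjusted p = 0.129). Dclk1, a microtubule-binding kinase, was at 114, 138 and 95.7 CPM in Nr2e3 guide and 62.7, 66.2 and 94.8 CPM in control guide libraries (log2 fold change 0.73, SE 0.21, edgeR adjusted p = 0.481). Cask, a synaptic scaffold with a kinase-like domain, was at 65.2 ± 6.11 CPM in Nr2e3 guide and 82.7 ± 4.08 CPM in control guide libraries (SD, n = 3 each), with a log2 fold change of -0.27 (edgeR adjusted p = 0.907). Camkv, a kinase-like protein without activity, was at 6.93 ± 7.30 CPM in Nr2e3 guide and 4.55 ± 1.06 CPM in control guide libraries (SD, n = 3 each), and Nr2e3 guide replicate 3 alone stood at 15.2 CPM.

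Downstream, 9 genes of AMP-activated kinase and Akt, which Camkk2 phosphorylates, had 0 calls by edgeR, beside 0.344% of all genes, 1 at an unadjusted p under 0.05, beside 5.69%, and a median log2 fold change of 0.07. DESeq2 (1.58% of all genes called) and limma-voom (1.04%) each called Prkaa2, the alpha-2 catalytic subunit, which was at 30.1, 28.7 and 35.8 CPM in Nr2e3 guide and 13.1, 14.7 and 8.84 CPM in control guide libraries. Its groups did not overlap (ratio of means 2.58, edgeR adjusted p = 0.106), and it was named after its values were seen. Prkab1 and Prkag1, regulatory subunits of the same enzyme, had log2 fold changes of -0.12 (SE 0.15) and -0.22 (SE 0.14).

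Of 15 tested genes listed as nuclear targets, among them transcription factors and deacetylases that these kinases phosphorylate, each tool called 0. Over all genes edgeR called 0.344%, DESeq2 1.58% and limma-voom 1.04%. The edgeR fit gave 1 of the 15 an unadjusted p under 0.05, beside 5.69% of all genes. The median log2 fold change of the 15 was 0.00. Mef2c was at 249 ± 22.3 CPM in Nr2e3 guide and 217 ± 34.0 CPM in control guide libraries, and Mef2d at 169 ± 52.4 CPM in Nr2e3 guide and 180 ± 91.9 CPM in control guide libraries (SD, n = 3 each). Calcineurin, the calmodulin-dependent phosphatase, and its regulators had 0 of 9 tested genes called by the 3 tools, beside the same shares of all genes. Of these 9, 0 had an unadjusted p under 0.05, beside 5.69% of all genes (median 0.02). Ppp3r1 was at a log2 fold change of 0.04 (SE 0.17) and Ppp3cb at 0.26 (SE 0.21). Of 12 genes of calcium entry and exit, each tool called 0, again beside these shares of all genes. An unadjusted p under 0.05 was found for 0 of the 12, beside 5.69% of all genes (median 0.04). Cngb1, a subunit of the rod channel, was at 1500 ± 287 CPM in Nr2e3 guide and 1514 ± 145 CPM in control guide libraries, and Slc24a1, the rod exchanger that removes calcium, at 1327 ± 137 CPM in Nr2e3 guide and 1615 ± 132 CPM in control guide libraries (SD, n = 3 each).

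The genes whose log2 level across the 6 libraries was most like that of Camk1g, among 8487 other named autosomal genes with a mean of at least 5 CPM, were Rpn2, Inka2, Lrrc20, Ccdc15 and Prss38, with Pearson correlations of 0.983 to 0.990. These 6 points include the difference between groups. Inka2 was at 88.8, 98.4 and 90.8 CPM in Nr2e3 guide and 150, 157 and 181 CPM in control guide libraries. On deviations from the group means, the most alike included Cdc27, Zdhhc21, Setbp1 and Casp9 (0.995 to 0.997), none of them among the first 5 above. Among the kinases, Camk1d came closest across the 6 libraries (0.874, place 152). On deviations from the group means Camk2d came closest (0.825, place 380), ahead of Camk1d (0.766, place 591), and Camk2b had -0.87. The libraries differed in depth and in marker sums, and all genes were read from the same 6 libraries, so these values only describe likeness. Among the neighbours within 200 kb of Camk1g, Traf3ip3 was at 64.0 to 81.6 CPM in Nr2e3 guide and 60.3 to 80.0 CPM in control guide libraries (log2 fold change 0.11, SE 0.21, edgeR adjusted p = 0.995), and A130010J15Rik was fitted at -0.10 on the log2 scale (SE 0.21).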

How the data were processed

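For each library the authors deposited a table of raw counts by gene symbol. The submitters' processing notes name STAR 2.7.3a, HTSeq 0.12.4, cutadapt and DESeq2 1.42.0, with GRCm38 (mm10) as the build. The sources used here give neither the annotation nor the strand setting. The SMARTer Ultra Low kit named in the labels' protocols does not mark strand, so reads of overlapping antisense genes may be mixed. Entries naming no gene held 21.6 to 23.7% of counts and were left out of totals. CPM is the count over the remaining total.

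Groups were compared across all genes with edgeR 4.0.16 in R 4.3.3 (TMM, filterByExpr with a minimum count of 10, glmQLFit, then glmQLFTest on group, no covariate, Benjamini-Hochberg adjusted p under 0.05). SE is the fold change over the square root of F. Alternatives were DESeq2 1.42.0, its size factors in edgeR, limma 3.58.1 (voom with quality weights), other count filters, a replicate block, a sex term, a pseudocount of 5 for the ratios, and leaving out each library. Exon lengths, positions and overlaps came from GENCODE M21, and promoters from RefSeq GRCm38.p6, with 3 of the 10 kinases not described there. Proteins were translated from GENCODE transcripts and aligned with BLOSUM62. The edgeR fit alone was run on simulated counts. These had the same spread setting for every gene and no difference in cell makeup or sex between libraries, unlike the data here. Members, lists and markers were chosen with earlier results of these data known. Named genes were the members, close relatives, calmodulin genes, Camk2 inhibitors, and in each list the called genes and the 2 of highest level. The genes most like Camk1g exclude unnamed and sex-linked ones. Neighbours within 200 kb were added after seeing the data. Some genes that these rules name are not reported here.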

Additional observations from a re-analysis of the deposited data

How the results depend on the processing

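The direction of Camk1g was kept in all 13 alternative fits. Its call was kept with DESeq2 size factors (adjusted p = 0.0477), the DESeq2 test (3.88e-08), limma-voom (0.0114), no count filter (0.00699) and a mean of at least 5 CPM (0.0270), and lost with the replicate block (0.171), sex as a term (0.440) and each library left out (0.0771 to 0.300). No paralog was called in any fit; 4 of them were not tested at a mean of at least 5 CPM. Replicate numbers name different animals. Deviations of same-numbered libraries correlated at 0.21, -0.10 and 0.26, and those of differently numbered libraries at -0.31 to 0.23. Whether same-numbered libraries share a batch was not tested. Against 54 genes higher and 5 lower, 201 and 70 were called by DESeq2, 160 and 19 by limma-voom, 130 and 25 without a filter, 31 and 1 with the replicate block, 6 and 0 with sex as a term, and 14 to 80 and 0 to 9 with 1 library left out, 80 and 9 without control guide replicate 3 and at most 21 and 4 without any other. Camk1 turned to -0.56 with limma-voom and -1.47 with sex as a term and ran from -0.13 to 0.82 with 1 library left out, Camk2a from -2.29 to 0.63 and Camk2d from -0.06 to 0.13. The cause of these changes was not tested. The Camk1g share of the Camk1 group differed by -6.95 percentage points, by -7.26 without Pnck and by -7.46 to -6.21 with 1 library left out. With a pseudocount of 5 counts the log2 ratio of Camk1g to Camk1d differed by -0.99 and that to Camk1 by -1.68, against -1.01 and -1.66. With 1 library left out the difference ran from -1.07 to -0.91 for Camk1d and from -2.43 (without Nr2e3 guide replicate 1) to -0.97 (without control guide replicate 3) for Camk1. The TMM-scaled count of kinases with groups apart, 4 against 2, and the lengths of coding transcripts were chosen after seeing the data. Low counts limit Camk1 and Camk2a, which had as few as 6 counts and 1 count in a library, and so does the spread between libraries. Camk2a ran from 1 to 148 counts in Nr2e3 guide libraries.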
